A study of Bos taurus with 18 samples.

Results

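SRGN, PLEK, DLL4, MCAM, CSPG4 and RASGEF1B are 6 genes known from blood cells and the cells of vessel walls. They were selected on the brightness of their signal in bovine granulosa before the LH surge, the surge of luteinizing hormone that starts ovulation. Of the 9155 genes with a symbol of their own on the array, these 6 were read by 10 of 24016 probe sets. SRGN, DLL4 and MCAM have 1 probe set each, PLEK and RASGEF1B have 2 and CSPG4 has 3. Each gene is read from the brightest of its probe sets, by the mean of the 18 arrays, and all 6 genes are described. Their levels in granulosa before LH, and every difference that includes those levels, are therefore given as descriptions with no test.

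Each of 6 cows gave 1 dominant follicle, and RNA of 3 cell populations from each follicle was hybridised to Affymetrix 3′ arrays, giving 18 arrays in 6 groups of 3. In 3 cows (A, B and C) the follicle was taken 22 h after GnRH, given to induce the surge, and one label counts the 22 h from the surge itself. In the other 3 cows (D, F and G) it was taken before the surge. Each stage has granulosa still attached to the follicle wall (membrane granulosa), granulosa aspirated with the fluid of the antrum (antral granulosa), and theca, the vascularised layer outside the basement membrane. The labels used here give no breed, age or genotype, all cows are untreated apart from GnRH as far as the labels say, and the arrays of a group are separate animals. The values are log2 signals, so a difference of 1 is a doubling. A signal below 4.62, the highest mean among the 8005 dimmest probe sets, is treated as not well above background.

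In an ordinary ovarian follicle granulosa holds no blood vessels before ovulation, and vessels run in the theca up to the basement membrane. After the surge that membrane breaks down and vessels grow into the former granulosa layer. Serglycin, the product of SRGN, is a proteoglycan that packs proteases and other charged molecules into the granules of blood cells, and pleckstrin (PLEK) is the major protein kinase C substrate of platelets and is also found in leukocytes. DLL4 is a Notch ligand of sprouting vessels, MCAM (CD146) an adhesion molecule of endothelium and pericytes, and CSPG4 (NG2) a surface proteoglycan of pericytes. RASGEF1B is a guanine nucleotide exchange factor for Rap2 GTPases, known in mouse macrophages as a gene induced by Toll-like receptor ligands.

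Genes that mark one population were also measured in the others. CYP19A1, the aromatase gene of granulosa, averaged 13.73 in membrane granulosa before LH (SD 0.17, n = 3), and in theca before LH it was at 10.85, 11.82 and 8.21 in cows D, F and G. CYP17A1, the 17-hydroxylase gene of theca, was at 10.42, 4.90 and 8.84 on the membrane granulosa arrays of the same cows, at 5.40 to 5.81 on their antral granulosa arrays and at 12.67, 10.48 and 12.11 in their theca. After LH CYP19A1 was below 4.62 on every antral granulosa and theca array. Of 13 measured granulosa markers 4 fell in theca after LH, among them INHBA, an activin and inhibin subunit, by 5.48 (limma, adjusted p = 0.000297). FST (follistatin) and AMH were higher in membrane granulosa than in theca after LH by 2.22 and 1.94 (adjusted p = 0.000162 and 0.000302). In granulosa itself only 2 of the 13 had a higher mean after LH in the membrane population and 1 in the antral one. The median differences were -1.32 and -1.41, against -0.05 and -0.01 over all probe sets. Before LH 12 of the 13 averaged higher in each granulosa population than in theca. A fall in granulosa and a level above theca before LH were thus not particular to the 6 genes. Of 10 measured theca markers 2 fell in theca, CYP17A1 by 6.27 (adjusted p = 0.00095) and the LH receptor gene LHCGR by 2.88 (adjusted p = 0.000185), and 4 were lower in membrane granulosa than in theca after LH, such as NR2F2 at -1.62 (adjusted p = 0.000573) and COL1A1 at -2.64 (adjusted p = 0.0015). LHCGR does not mark theca alone here. Before LH it averaged 9.63 in membrane granulosa and 8.13 in antral granulosa, against 8.57 in theca. Over all probe sets 2.12% were called lower in theca after LH, and 11.4% lower in membrane granulosa than in theca. In a bulk sample fewer cells of a type and less RNA per cell cannot be told apart.

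All 6 genes were far lower in granulosa after LH than before it, and their theca levels differed by less. Before LH each was higher in both granulosa populations than in the theca of the same cow, and after LH each was lower. In membrane granulosa the fitted difference after minus before LH lay between -3.89 for PLEK and -2.82 for CSPG4, with a median of -3.38 over the 6 genes against -0.05 over all probe sets. In antral granulosa it lay between -4.90 for SRGN and -2.05 for CSPG4 for the 5 genes measured after LH, and PLEK, below 4.62 on all antral arrays after LH, was lower by at least 4.48. The median of the 6 was -3.29 against -0.01 over all probe sets. In both populations the arrays after and before LH did not overlap for any of the 6 genes, where 19.7% of all probe sets in membrane granulosa and 19.4% in antral granulosa were lower after LH without overlap. Since the genes were chosen by their levels before LH, nothing is read from that comparison.

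**Figure D1:**
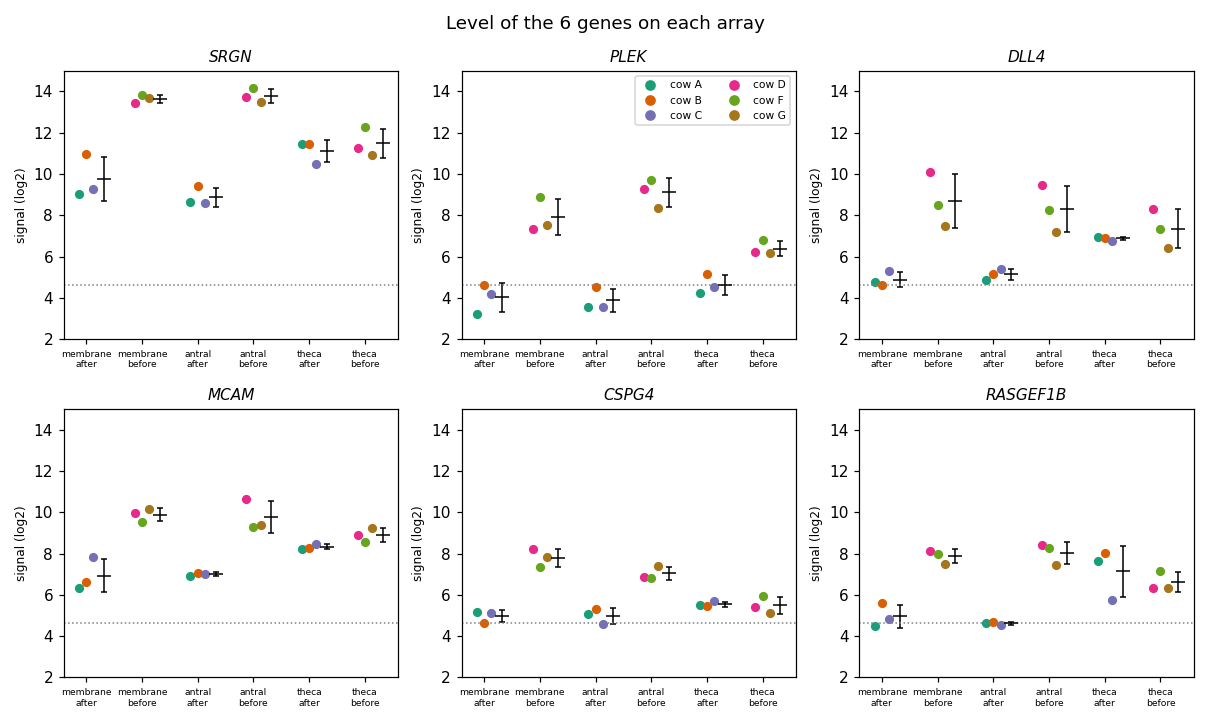
Signal of the 6 genes (log2, vertical axis) on each of the 18 arrays by cell population and stage; points are cows A to G, the black marks are group means with SD, and the dotted line is the limit of 4.62 below which a signal is not well above background. For every gene the 3 granulosa arrays before LH stand above the 3 after LH in both granulosa populations, and the theca arrays of the stages lie closer together, as for DLL4 with 6.43 to 8.31 over all 6 theca arrays.

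SRGN had 9.04, 10.98 and 9.29 in membrane granulosa of cows A, B and C after LH, against 13.42, 13.83 and 13.66 in cows D, F and G before LH. In antral granulosa it had 8.64, 9.41 and 8.59 after LH, against 13.71, 14.16 and 13.49 before. In theca it had 11.45, 11.43 and 10.49 after LH, against 11.28, 12.29 and 10.91 before. The granulosa levels after LH were still well above background, and cow B held the highest one in both populations. The difference in membrane granulosa was -3.86 (SE 0.45), a 14.6-fold lower signal, and in antral granulosa -4.90 (SE 0.45), a 29.9-fold lower one. The levels before LH lie near the brightest value of the arrays, 14.9, so these differences can be understated.

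PLEK had 3.23, 4.64 and 4.20 in membrane granulosa after LH, against 7.31, 8.90 and 7.51 before. Antral granulosa had 3.56, 4.51 and 3.57 after LH, against 9.26, 9.71 and 8.35 before. In theca it had 4.22, 5.15 and 4.53 after LH, against 6.20, 6.81 and 6.16 before. After LH 1 of 3 arrays each of membrane granulosa and theca, and none of antral granulosa, lay above the limit of 4.62. The difference in membrane granulosa was -3.89 (SE 0.47), and in antral granulosa the signal was at least 22.3-fold lower after LH, taking the limit as the level there. PLEK was also the one gene higher in antral than in membrane granulosa of every cow before LH, by 1.20 (SE 0.23), though the 2 groups overlapped.

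DLL4 had 4.75, 4.61 and 5.29 in membrane granulosa after LH, against 10.11, 8.51 and 7.48 before. In antral granulosa it had 4.85, 5.18 and 5.40 after LH, against 9.46, 8.28 and 7.21 before. In theca it had 6.94, 6.92 and 6.77 after LH, against 8.31, 7.32 and 6.43 before. Before LH the cows stood in the same order in all 3 populations, D above F above G, and they were spread far more widely than the cows after LH. The standard deviation over cows was 0.36 in membrane granulosa after LH and 1.32 before. The difference was -3.82 (SE 0.61) in membrane granulosa and -3.17 (SE 0.61) in antral granulosa. Before LH DLL4 was lower in antral than in membrane granulosa of every cow, at -0.39 (SE 0.18) on average, with overlapping groups.

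MCAM had 6.31, 6.64 and 7.85 in membrane granulosa after LH, against 9.97, 9.52 and 10.14 before. The antral arrays had 6.92, 7.08 and 7.03 after LH, against 10.65, 9.29 and 9.40 before. In theca it had 8.24, 8.28 and 8.47 after LH, against 8.91, 8.54 and 9.23 before. The differences were -2.94 (SE 0.37) in membrane and -2.77 (SE 0.37) in antral granulosa, and all granulosa arrays stayed well above background. The membrane granulosa array of cow C, highest in MCAM after LH, was also the highest of the 3 in PECAM1, the endothelial adhesion molecule CD31, at 6.66 against 5.08 and 5.69 in cows A and B. That array was not high in endothelial genes alone. The mean of the theca markers was 8.84 there, against 8.04 and 8.10 in cows A and B, though INSL3 of that list was highest in cow B. The mean of the pericyte and smooth muscle markers was 6.98 there, against 5.65 and 6.0. The part of cells other than granulosa in the MCAM level was not tested.

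CSPG4 had 5.16, 4.63 and 5.12 in membrane granulosa after LH, against 8.22, 7.34 and 7.82 before. On antral arrays it had 5.05, 5.32 and 4.57 after LH, against 6.89, 6.82 and 7.40 before. In theca it had 5.53, 5.44 and 5.69 after LH, against 5.41, 5.94 and 5.15 before, so the theca arrays of both stages overlapped. The differences in granulosa were -2.82 (SE 0.26) in membrane and -2.05 (SE 0.26) in antral granulosa. Before LH CSPG4 was lower in antral than in membrane granulosa of every cow, at -0.76 (SE 0.29) on average, with overlapping groups.

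RASGEF1B had 4.50, 5.58 and 4.84 in membrane granulosa after LH, against 8.11, 8.0 and 7.47 before. Antral granulosa held 4.65, 4.67 and 4.53 after LH, against 8.40, 8.28 and 7.43 before. In theca it had 7.65, 8.04 and 5.75 after LH, against 6.34, 7.18 and 6.36 before. In granulosa after LH it was close to the limit, with 2 of 3 arrays above it in each population, and in theca after LH cow C stood well below cows A and B. The differences were -2.89 (SE 0.47) in membrane and -3.42 (SE 0.47) in antral granulosa.

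The other probe sets of PLEK, CSPG4 and RASGEF1B were dimmer. On the second RASGEF1B probe set the signal was at least 2.31 (log2) lower after LH in membrane granulosa and 2.12 lower in antral granulosa. The second PLEK probe set averaged 3.19 in membrane granulosa after LH, against 4.69 before, and 3.71 in antral granulosa after LH, against 4.90 before. On the second CSPG4 probe set the means were 4.57 after LH and 5.19 before LH in membrane granulosa, and 4.43 after LH and 4.79 before LH in antral granulosa. The third CSPG4 probe set averaged 4.02 in membrane granulosa after LH, against 5.17 before, and 4.30 in antral granulosa after LH, against 4.80 before. On all 4 of these probe sets the mean after LH was the lower one in both populations, and the fitted difference was smaller than on the gene's brightest probe set.

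**Figure D2:**
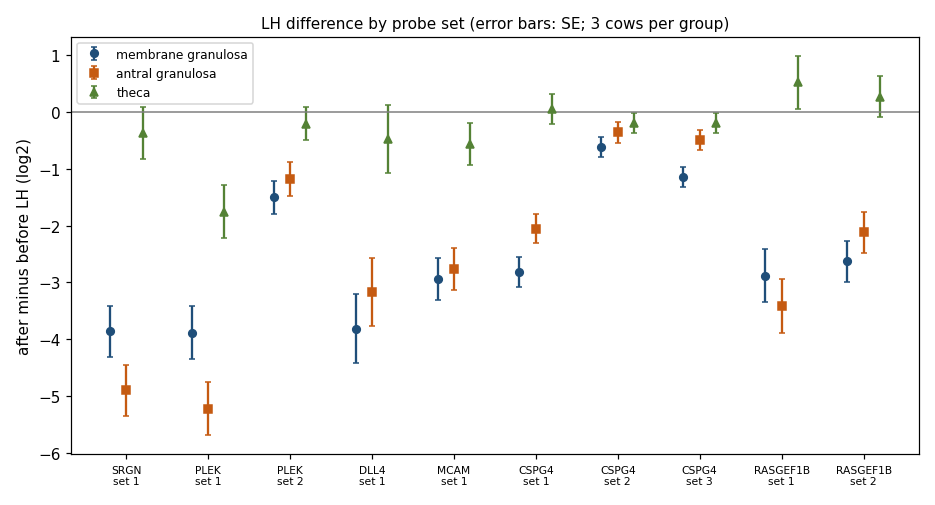
Difference after minus before LH (log2, vertical axis; bars are standard errors, 3 cows a group) for each of the 10 probe sets in membrane granulosa, antral granulosa and theca. Values are drawn as fitted, and those of PLEK in antral granulosa hold only a bound. On the probe sets that read the other 5 genes the granulosa values lie between -4.90 and -2.05, and the theca values of all 6 between -1.76 and 0.52.

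The rule that chose the genes did not use theca values. Theca before LH held granulosa markers, however, with CYP19A1 at 10.85, 11.82 and 8.21 in cows D, F and G. Genes bright in granulosa before LH can therefore be raised there too, and the theca comparison is not independent of the choice. Between the stages of theca the 6 genes were tested with that limit. PLEK fell there by 1.76 on the log2 scale (SE 0.47, limma, adjusted p = 0.0477), to a mean of 4.63 after LH, against 6.39 before, without overlap of the arrays, of which 2 of 3 after LH were below 4.62. It was 1 of 6 genes called lower and none was called higher, where 2.12% of all probe sets were called lower and 1.79% higher. The call was lost when cow A, C, D, F or G was left out, with adjusted p between 0.0881 and 0.183, and held at 0.0373 without cow B.

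The other 5 genes did not pass the test in theca. MCAM differed by -0.56 (SE 0.37, adjusted p = 0.536) with no overlap between the arrays after and before LH. DLL4 differed by -0.48 (SE 0.61, adjusted p = 0.808), SRGN by -0.37 (SE 0.45, adjusted p = 0.802) and CSPG4 by 0.05 (SE 0.26, adjusted p = 0.964). RASGEF1B was the one gene with a higher mean of some size, 0.52 (SE 0.47, adjusted p = 0.689), which became 1.22 (adjusted p = 0.0944) without the low array of cow C. The theca arrays before LH that held most CYP19A1 held most SRGN, PLEK and CSPG4 too: all 4 genes were highest in cow F, then cow D, then cow G. The other 3 did not follow that order: DLL4 was highest in cow D, then F, then G, MCAM in cow G, then D, then F, and RASGEF1B in cow F, then G, then D. Not every granulosa marker gave the CYP19A1 order. FSHR, INHBA and the mean of the 13 granulosa markers were highest in cow D, then F, then G, the order of DLL4. That mean was 9.49, 9.35 and 8.61 in cows D, F and G. Vessel and blood-cell markers differed between these arrays too. The endothelial mean was 6.9135, 7.4204 and 6.9094 in cows D, F and G, and the leukocyte mean 6.02, 6.83 and 6.19, both highest in cow F. The pericyte and smooth muscle mean was highest in cow G, at 8.56, 8.79 and 9.38. The part of granulosa, vessel or leukocyte RNA in the theca levels before LH was not tested.

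After LH the genes could be tested between the populations of the same cows, on arrays that the rule did not use. Earlier results of these data were known when the genes were chosen. In membrane granulosa 4 of 6 were lower than in theca, and none was higher, where 11.4% of all probe sets were called lower and 14.4% higher. DLL4 was lower, at -2.0 (SE 0.18, limma with the cow as a block, adjusted p = 5.27e-05), a 3.99-fold lower signal. RASGEF1B was lower, at -2.17 (SE 0.37, adjusted p = 0.00116), 4.51-fold, and on its second probe set the call was lost (adjusted p = 0.0763). MCAM was lower, at -1.39 (SE 0.30, adjusted p = 0.00491) and SRGN by -1.35 (SE 0.29, adjusted p = 0.00512).

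Each of the 6 genes was lower in membrane granulosa than in theca in every cow after LH, as were 26.4% of all probe sets. For SRGN the cows differed widely, with -2.40, -0.45 and -1.20 in cows A, B and C, the groups overlapped, and without the cow block the adjusted p was 0.0512. PLEK differed by -0.61 (SE 0.23, adjusted p = 0.0749), with most arrays of both groups below 4.62. CSPG4 differed by -0.58 (SE 0.29, adjusted p = 0.168) and its groups did not overlap. Without cow A 2 of the 6 genes were called, SRGN at an adjusted p of 0.0853 and MCAM at 0.0813, and MCAM missed the threshold without cow B too (adjusted p = 0.0676).

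In antral granulosa after LH 5 of 6 genes were lower than in theca and none was higher, where 15.7% of all probe sets were called lower and 20.5% higher. RASGEF1B was lower, at -2.53 (SE 0.37, adjusted p = 0.000237), 5.76-fold, but on its second probe set the difference was -0.24 (SE 0.36, adjusted p = 0.645) with overlapping groups. SRGN was lower, at -2.24 (SE 0.29, adjusted p = 0.000116), and here all 3 antral arrays lay below all 3 theca arrays. DLL4 was lower, at -1.73 (SE 0.18, adjusted p = 2.19e-05) and MCAM by -1.32 (SE 0.30, adjusted p = 0.00455). All 6 genes were lower in every cow, as were 23.5% of all probe sets, and the median difference of the 6 was -1.53 against 0.11 over all probe sets.

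PLEK was called lower in antral granulosa than in theca after LH (adjusted p = 0.0239), but all antral arrays and 2 of 3 theca arrays were below 4.62, so no size is given. That call was lost without cow A, B or C, and without the cow block (adjusted p = 0.244). CSPG4 did not pass the test, at -0.57 (SE 0.29, adjusted p = 0.141), with antral arrays at 4.57 to 5.32 all below the theca arrays at 5.44 to 5.69.

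**Figure D3:**
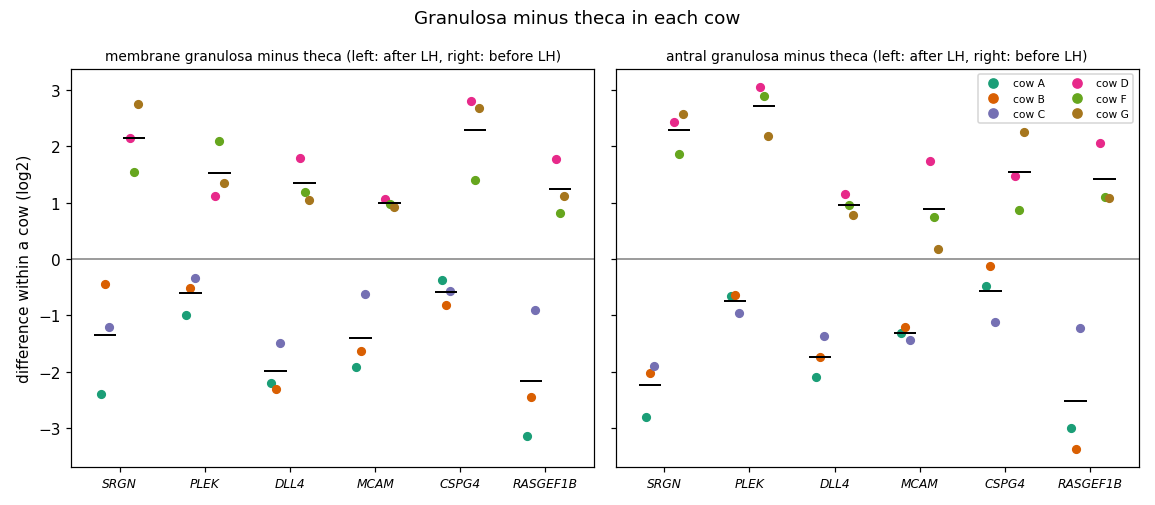
Difference granulosa minus theca within each cow (log2, vertical axis) for the 6 genes, for membrane and antral granulosa; points are cows and black lines their means. Every point after LH lies below 0 and every point before LH above it. SRGN in membrane granulosa, for example, is at -2.40, -0.45 and -1.20 after LH.

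Before LH the order of the tissues was the opposite. Membrane granulosa was above theca by 2.29 for CSPG4, 2.15 for SRGN, 1.52 for PLEK, 1.35 for DLL4, 1.24 for RASGEF1B and 0.99 for MCAM. Antral granulosa was above theca by 2.72 for PLEK, 2.29 for SRGN, 1.54 for CSPG4, 1.41 for RASGEF1B, 0.96 for DLL4 and 0.89 for MCAM. Each gene was higher in granulosa in every cow, as were 34.3% of all probe sets for membrane and 40.3% for antral granulosa. DLL4 alone overlapped between granulosa and theca, with cows from 7.21 to 10.11 in granulosa and from 6.43 to 8.31 in theca. These differences hold the levels that chose the genes and have no test.

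Membrane and antral granulosa after LH differed for none of the 6 genes by limma with the cow block, where 1.57% of all probe sets were called lower and 1.43% higher in antral granulosa. SRGN was the one gene with an unadjusted p under 0.05, and the one lower in antral granulosa in all 3 cows, at -0.89 (SE 0.29, unadjusted p = 0.0102, adjusted p = 0.105). The other 5 differences lay between -0.35 for RASGEF1B and 0.26 for DLL4. With standard errors of 0.18 to 0.37 at 3 cows a group, moderate differences could go undetected.

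By their mean signal per array, markers of endothelium and pericytes were highest in theca at both stages. Of 21 endothelial markers 18 were measured, and none had a higher mean in granulosa than in theca before LH. Their mean signal per array was 4.85 to 5.68 in membrane granulosa after LH and 4.31 to 4.88 before, 4.65 to 4.79 in antral granulosa after LH and 4.36 to 4.55 before, and 7.09 to 7.33 in theca after LH and 6.91 to 7.42 before. TIE1 was below the limit on every granulosa array and above it on every theca array. KDR and EDNRB were below it on every array of all 3 populations, and VWF on every granulosa array and on every theca array before LH, so these 3 say little about granulosa. PECAM1 averaged 5.81 in membrane granulosa after LH and 5.80 before (SD 0.80 and 0.47, n = 3 each), against 9.42 and 9.44 in theca after and before LH.

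After LH 14 of the 18 endothelial markers were called lower in membrane granulosa than in theca, and 14 in antral granulosa, with medians of -2.33 and -2.96. Over all probe sets 11.4% and 15.7% were called lower. CDH5, the cadherin of vessel endothelium, was lower in membrane granulosa, at -2.85 (adjusted p = 9.06e-05), as were PECAM1, at -3.62 (adjusted p = 6.23e-05), and ROBO4, a guidance receptor of endothelium, at -2.91 (adjusted p = 6.23e-05). VWF rose in theca (adjusted p = 0.0372), by at least 0.34 since it was below the limit before LH.

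FLT1, a VEGF receptor singled out after its values were seen, differed from most of the endothelial list in its level beside theca after LH. It averaged 7.26 in membrane granulosa after LH and 3.98 before, and 6.93 in antral granulosa after LH and 3.64 before, against 7.14 and 7.36 in theca after and before LH. It was the one endothelial marker with a higher mean in membrane granulosa than in theca after LH, at 0.12 (SE 0.35, adjusted p = 0.861). In granulosa FLT1 was higher after LH, where the 6 genes were lower. By mean 13 of the 18 endothelial markers were higher after LH in each granulosa population. Their median differences were 0.27 in membrane and 0.13 in antral granulosa. LYVE1 was higher by 2.58 in membrane but not in antral granulosa.

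Of 12 pericyte and smooth muscle markers 9 were measured. After LH 9 were called lower than theca in membrane granulosa and 8 in antral granulosa, beside 11.4% and 15.7% of all probe sets. Their mean per array was 5.65 to 6.98 in membrane granulosa after LH and 5.51 to 6.39 before, 4.91 to 5.60 in antral granulosa after LH and 4.90 to 5.13 before, and 8.16 to 8.92 in theca after LH and 8.56 to 9.38 before. PDGFRB, the receptor that defines pericytes, was below the limit on every granulosa array at both stages, and on all theca arrays but that of cow A after LH. Its call in membrane granulosa minus theca therefore has no measured size. MYH11, the smooth muscle myosin, averaged 7.65 in membrane granulosa after LH and 8.62 before, against 10.66 and 11.93 in theca after and before LH, where it fell (adjusted p = 0.047). DES, the desmin gene of muscle cells, was lower in membrane granulosa than in theca after LH, at -2.10 (adjusted p = 3.87e-05).

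Of 25 leukocyte markers 20 were measured. After LH 8 were called lower than theca in membrane granulosa and 11 in antral granulosa, beside 11.4% and 15.7% of all probe sets. Their mean was 5.16 to 5.86 in membrane granulosa after LH and 5.17 to 5.49 before, 5.15 to 5.46 in antral granulosa after LH and 4.84 to 5.99 before, and 6.22 to 6.82 in theca after LH and 6.02 to 6.83 before. The highest antral value before LH, 5.99, was that of cow D, against 5.0 and 4.84 in cows F and G. Between the stages 12 of the 20 had a higher mean after LH in each granulosa population, with median differences of 0.24 in membrane and 0.03 in antral granulosa, so the list as a whole was not lower after LH. CD14, the monocyte receptor for lipopolysaccharide, rose in theca by 2.08 (adjusted p = 0.0313), and averaged 7.03 in membrane granulosa after LH and 4.33 before, and 7.19 in antral granulosa after LH and 6.26 before. NKG7 rose in theca by 0.64 (adjusted p = 0.0453). LCP1 and CSF1R, genes of the leukocyte cytoskeleton and of macrophages, were lower in membrane granulosa than in theca after LH, at -1.82 (adjusted p = 0.00208) and -1.37 (adjusted p = 0.00426).

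PTPRC, the common leukocyte antigen CD45, averaged 6.75 in membrane granulosa after LH and 7.89 before, 6.03 in antral granulosa after LH and 6.98 before, and 7.71 in theca after LH and 8.37 before. It was lower after LH in all 3 populations by mean, and in theca the difference of -0.66 did not pass the test (adjusted p = 0.515). In each granulosa population PTPRC was one of 8 leukocyte markers without a higher mean after LH, and the 8 were not all the same genes in both. The part of leukocyte RNA in the levels of the 6 genes was not tested.

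Of 12 platelet markers 5 were measured, with PF4 and ITGA2B below the limit on every granulosa array. ITGA2B was below it on every theca array too, and PF4 on every theca array before LH. SELP, the P-selectin of platelets and endothelium, rose in theca by 1.52 (adjusted p = 0.0251) and was lower in membrane granulosa than in theca after LH, at -2.65 (adjusted p = 0.000178), as was the integrin gene ITGB3, at -3.47 (adjusted p = 0.000271). Of 8 mast cell markers 4 were measured, and FCER1A and HDC were below the limit on every granulosa array, HDC on every theca array too. FCER1A, also below the limit in theca before LH, rose there by at least 0.67 (adjusted p = 0.013). Of 11 red cell markers 8 were measured, at a mean of 3.95 to 4.40 over all arrays, and the beta-globin gene HBB averaged 4.40 to 4.86 in every group.

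**Figure D4:**
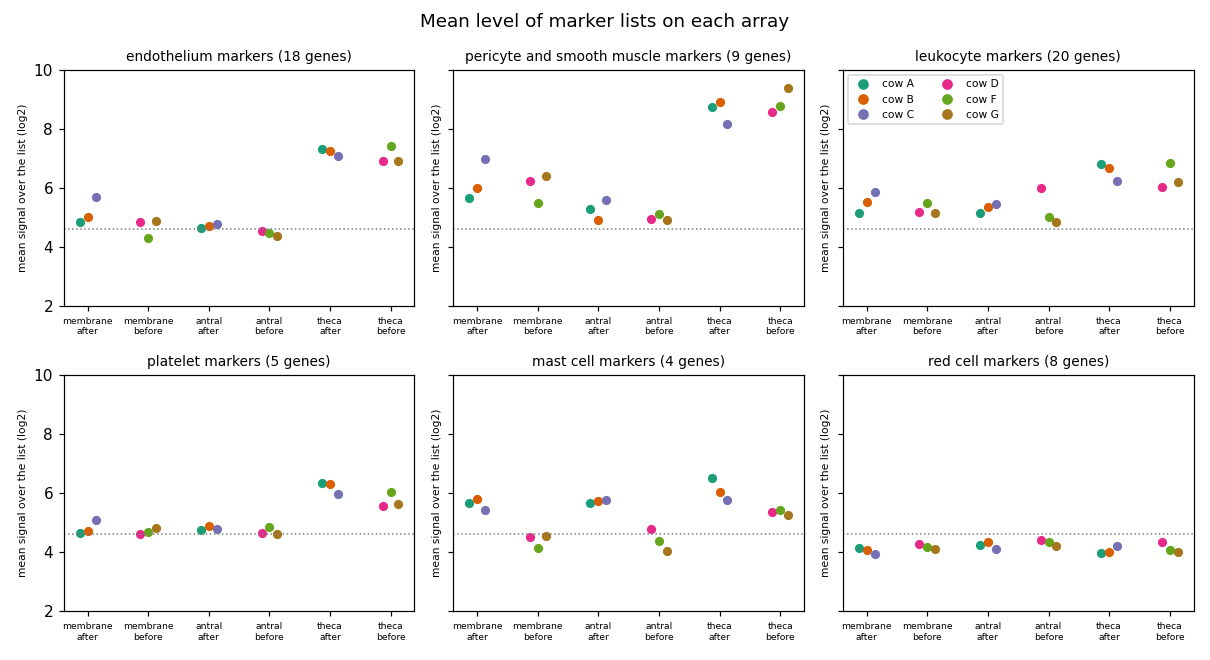
Mean signal per array (log2, vertical axis) over the measured markers of endothelium, pericytes and smooth muscle, leukocytes, platelets, mast cells and red cells, by population and stage; points are cows and the dotted line is the limit of 4.62. Endothelial and pericyte markers are highest in theca at both stages, with endothelial means of 6.91 to 7.42 there and at most 5.68 in granulosa.

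Of 35 genes of the Notch pathway, in which DLL4 is a ligand, 17 were measured. None was called in theca between the stages. After LH 4 were lower in membrane granulosa than in theca and none higher, and in antral granulosa 5 were lower and 1 higher, beside 11.4% lower and 14.4% higher of all probe sets in membrane and 15.7% lower and 20.5% higher in antral granulosa. NOTCH4, a receptor of endothelium, was lower, at -1.39 (adjusted p = 8.8e-05) in membrane granulosa, the ligand JAG1 by -1.57 (adjusted p = 0.00129) and MFNG, a glycosyltransferase that modifies Notch receptors, by -2.77 (adjusted p = 0.000172).

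JAG1 stood opposite to DLL4 between the stages of granulosa. It had 7.14, 7.08 and 7.51 in membrane granulosa after LH against 6.36, 6.36 and 6.80 before, and 7.59, 7.07 and 7.69 in antral granulosa after LH against 5.46, 5.73 and 5.05 before. Neither pair of groups overlapped, and all JAG1 theca arrays were higher, at 8.28 to 9.19. NOTCH4 was at 6.80 to 6.98 in membrane granulosa after LH and 6.15 to 6.36 before, so 1 ligand of the pathway was lower while another ligand and a receptor were higher there. In antral granulosa NOTCH4 overlapped between the stages, at 6.93 to 7.27 after LH and 6.72 to 7.02 before.

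Of 27 genes that build the glycosaminoglycan chains carried by proteoglycans such as SRGN and CSPG4, 14 were measured. After LH 3 were higher and 1 lower in membrane granulosa than in theca, and 1 higher and 4 lower in antral granulosa, beside 14.4% and 11.4% of all probe sets in membrane and 20.5% and 15.7% in antral granulosa. CHPF, which extends chondroitin chains, fell in theca by 0.84 (adjusted p = 0.039) and was higher in membrane granulosa than in theca after LH by 0.83 (adjusted p = 0.00259). The sulphotransferase gene CHST7 was lower there, at -1.39 (adjusted p = 0.00355). Between the stages 2 of the 14 had a higher mean after LH in membrane granulosa and 5 in antral granulosa. The median differences were -0.35 and -0.13, against -0.05 and -0.01 over all probe sets, the direction of SRGN and CSPG4.

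Of 15 ligands and matrix partners of MCAM and CSPG4, 10 were measured, and 6 were lower in each granulosa population than in theca after LH, beside 11.4% and 15.7% of all probe sets. The laminin genes LAMB1 and LAMC1 were lower in membrane granulosa, at -1.85 (adjusted p = 0.00121) and -1.51 (adjusted p = 0.00129). LGALS3, the gene of galectin-3, a lectin that binds MCAM and CSPG4, rose in theca by 3.44 (adjusted p = 0.00401), the only one of the 10 called there. In membrane granulosa it averaged 11.71 after LH and 6.65 before, and in antral granulosa 11.19 after LH and 7.24 before, the reverse of MCAM and CSPG4. LGALS3 was not alone in that direction. By mean 7 of the 10 were higher after LH in each granulosa population. The median differences were 1.10 in membrane and 0.81 in antral granulosa, against -0.05 and -0.01 over all probe sets.

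Of 24 Ras and Rap exchange factors and Rap GTPases other than RASGEF1B 13 were measured. After LH 1 was higher and 1 lower in membrane granulosa than in theca, and 1 higher and 2 lower in antral granulosa, all below the shares over all probe sets (14.4% higher and 11.4% lower, and 20.5% higher and 15.7% lower). RAP2C, a member of the Rap2 group on which RASGEF1B acts, was higher by 0.50 (adjusted p = 0.0213) and 0.87 (adjusted p = 0.000495). It averaged 9.57 in membrane granulosa after LH and 8.25 before, opposite to RASGEF1B. RAPGEF3, an exchange factor for Rap1 that cyclic AMP activates, was lower in membrane granulosa than in theca, at -0.76 (adjusted p = 0.00491). None of the 13 was called between the stages in theca.

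Of 18 protein kinase C genes and partners of pleckstrin 12 were measured. After LH 4 were higher and 1 lower in membrane granulosa than in theca, and 3 higher and 1 lower in antral granulosa, beside the same shares over all probe sets. PLCB4, a phospholipase C, was higher in membrane granulosa than in theca by 1.25 (adjusted p = 0.000162). PLEK2, the paralogue of PLEK found outside blood cells as well, had 6.13, 5.79 and 5.64 in membrane granulosa after LH, against 7.44, 7.62 and 7.87 before. Its antral levels were 6.34, 6.47 and 6.01 after LH, against 8.0, 8.19 and 8.30 before. PLEK2 was thus lower after LH without overlap in both populations, by a smaller step than PLEK, and in theca it differed by -0.43 (adjusted p = 0.286). PRKCB, the protein kinase C isoform of blood cells, was lower in membrane granulosa than in theca by -1.88 (adjusted p = 0.00158).

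Over the 18 arrays the 6 genes correlated with each other at Pearson's r between 0.74 for CSPG4 with RASGEF1B and 0.93 for SRGN with PLEK. These r are descriptions: arrays of a cow share a follicle, and the granulosa arrays before LH that chose the genes stand apart from the rest. Among 1259 other genes whose group means span at least 2 (log2), SRGN was most like MOB3B, CCND2 and MDFIC, each at r = 0.96. CCND2 is cyclin D2 of the cell cycle.

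PLEK was most like TK1, CCND2 and HSD17B1, each at r = 0.96, where TK1 is thymidine kinase and HSD17B1 an oestrogen-forming enzyme of granulosa. DLL4 was most like GRK5, ATP13A3 and CKS2, at 0.92, 0.91 and 0.91. MCAM was most like DSN1, NCAPH and SKA3, at 0.97, 0.96 and 0.96, which are genes of chromosome segregation. CSPG4 was most like CYBB, SLC43A2 and ASPH, at 0.95, 0.94 and 0.93, where CYBB is the phagocyte oxidase subunit gp91phox. RASGEF1B was most like NUSAP1, MOB3B and HMGN2, at 0.95, 0.95 and 0.93. By Spearman's rank correlation 8 of these 18 places were kept among the 3 genes most like each of the 6, only MDFIC for SRGN, and ASPH (0.73 with CSPG4), HSD17B1 (0.87 with PLEK) and HMGN2 (0.86 with RASGEF1B) stood lower than by Pearson's r.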

How the data were processed

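RNA of 3 cell populations from the dominant follicle of 6 cows was measured on 18 Affymetrix arrays. Per the submitters' processing notes, the authors made the values with RMA in Partek 6.5, and its settings are not given in the sources used here. The deposited values are log2 signals, from 2.29 to 14.9 with array medians of 5.74 to 5.86, and were used without further normalization. RMA brings all arrays to 1 distribution, so shifts shared by most genes are not seen. Of 24128 entries the 112 controls were left out.

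Genes were named from the platform's annotation, which can be old: 13292 probe sets had 1 symbol, 86 had several and 10638 had none. Differences were fitted with limma 3.58.1 (lmFit and eBayes) in R 4.3.3 over 24016 probe sets, with the Benjamini-Hochberg correction and a threshold of 0.05. Stages were compared between cows from the means of the 6 groups, without a block. Comparisons of populations have the cow as a block, since each cow's populations come from 1 follicle: with group means taken out, r between 2 arrays from 1 cow ran between -0.02 and 0.69, and exceeded 0.1 in 17 of the 18 pairs. A replicate number stands for another cow at each stage and pairs nothing there. The fits were tested on simulated data. Figures were drawn with matplotlib 3.10.9.

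The 6 genes and the 13 gene lists (232 genes, 153 measured) were chosen with earlier results of these data known. Lists are given by counts and medians, with no test of the list. Named were every probe set of the 6 genes, from each list the genes with the smallest adjusted p in the LH effect in theca and in membrane granulosa minus theca after LH (2 each), markers and Notch and pleckstrin genes set in that rule, and the 3 genes most like each of the 6. Genes picked from a list by that rule that passed neither test are mostly left out. FLT1, the lists of markers below the limit and the genes that stood out on single arrays were named after their values were seen. An "at least" value sets a group below 4.62 on every array to that limit. Alternatives were leaving out each cow, only the arrays compared, 1 probe set per gene, other probe sets, the block and a random block. No sequence is shown.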

Additional observations from a re-analysis of the deposited data

Results flagged for a closer look

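For each of the 6 genes granulosa was below theca in every cow after LH and above theca in every cow before LH. The difference between these differences, after minus before, was not tested, since the levels before LH chose the genes. In membrane granulosa it was -3.5 for SRGN, -3.41 for RASGEF1B, -3.34 for DLL4, -2.88 for CSPG4, -2.38 for MCAM and -2.13 for PLEK. In antral granulosa it was -4.54 for SRGN, -3.94 for RASGEF1B, -3.47 for PLEK, -2.69 for DLL4, -2.21 for MCAM and -2.11 for CSPG4. These are values as fitted. For PLEK they show no exact size, since after LH all antral arrays and 2 of 3 arrays each of membrane granulosa and theca lay below 4.62, as did some granulosa arrays of DLL4, CSPG4 and RASGEF1B.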

How the results depend on the processing

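Of the values for single genes in the tested comparisons, 327 kept their direction and side of the threshold, 18 lost a call, 2 gained one and 1 reversed. The reversed one was PLEK in antral granulosa minus theca after LH, at 0.202 on its second probe set (adjusted p = 0.6), where both groups lie below 4.62. With the second probe set of each gene that has one, 0 of 6 genes were called in theca between the stages, and 3 in antral granulosa minus theca, against 1 and 5. Leaving out each cow in turn gave 0 to 1 genes called in theca, 2 to 5 in membrane granulosa minus theca, 4 to 5 in antral granulosa minus theca and 0 in antral minus membrane granulosa. Fitted on the compared arrays only, SRGN in membrane granulosa minus theca missed the threshold (adjusted p = 0.0626) and CSPG4 passed it (adjusted p = 0.0424). PLEK passed there without cow D (adjusted p = 0.0405). Without the cow block SRGN there had an adjusted p of 0.0512 and PLEK in antral granulosa minus theca 0.244 (random block 0.132).

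The calls over all probe sets moved more. In theca between the stages 941 were called, 524 with 1 probe set per gene, 514 from those 2 groups only, and 439, 465 and 571 without cow A, D or G. In membrane granulosa minus theca 6187 were called, 3053 with 1 probe set per gene, 2617 without cow A and 2467 without B. In antral granulosa minus theca 8706 were called, 3990 with 1 probe set per gene, and 5203 and 5090 without A or B. In antral minus membrane granulosa 721 were called, 339 with 1 probe set per gene, 1226 from the compared arrays only, 297 with no cow block, and 5, 0, 280 and 472 without A, B, C or D. Fewer probe sets or arrays enter most of these fits, and other causes were not tested. Of the described differences 243 stayed within the spread between cows and 12 moved, most of them on other probe sets. CSPG4 in membrane granulosa minus theca before LH was 2.74 without cow F, against 2.29. Signals near 4.62 limit PLEK, CSPG4 and RASGEF1B in granulosa after LH.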

Other observations

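KIT, the receptor of stem cell factor, is known from mast cells and from the ovary, and stood apart from the rest of the mast cell list. It averaged 10.79 in membrane granulosa after LH and 6.22 before, 10.75 in antral granulosa after LH and 5.74 before, and 10.93 in theca after LH and 9.08 before. The theca difference of 1.85 did not pass the test (adjusted p = 0.127), and the other measured mast cell markers stayed at or below 5.30 by mean in every group.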
